A study of Drosophila melanogaster with 16 samples.

Results

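Embryos that overexpressed Otk were compared with embryos that did not, over all genes that 1 probeset measures alone. The comparison rests on 4 of the 16 arrays of the series, 2 of Otk++ and 2 of WT, and on 8871 of the 11904 genes with such a probeset, those whose value exceeded 2.5 on the log2 scale in at least 2 arrays. All embryos, the WT ones included, were "naïve": their mothers carried the bcdE1, nosL7 and tsl146 alleles, and so they lacked the maternal cues that set up the axis from head to tail. Otk++ embryos came from such mothers with da-Gal4 crossed to UAS-Otk, which drives the transgene throughout the embryo, and WT embryos expressed no transgene. Each array held RNA from about 50 whole embryos, collected over a window of 4 to 16 h of development, and the labels call both arrays of a genotype biological replicates. The other 6 genotypes carried Wg++, arm∆N, DisArmed, tcf∆N-short, tcf∆N-long or arm∆N with tcf∆N-short under the same driver.

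Otk is a single-pass membrane protein with a kinase-like domain that is thought to be inactive, and it is the fly relative of vertebrate PTK7. Wnt ligands act through a canonical branch, in which beta-catenin (Armadillo) enters the nucleus and works with TCF (Pangolin), and through branches that do not use beta-catenin, among them planar cell polarity. In flies Otk and its neighbour Otk2 have been linked to Wnt4 and to those other branches, and in vertebrates PTK7 is known from planar polarity and the movement of the neural crest.

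One array stood apart before any gene was compared. Control probesets for the 3′ and 5′ ends of actin, eIF-4a and GAPDH differed by 7.80, 6.36 and 5.20 on the log2 scale on WT replicate 1, against 3.78, 3.11 and 2.79 on WT replicate 2. On Otk++ replicate 1 the 3 gaps were 1.51, 1.25 and 2.34, and on Otk++ replicate 2 they were 2.10, 2.08 and 2.71. A probeset for the middle of 18S rRNA read 9.69 on WT replicate 1, 4.24 on WT replicate 2, 4.86 on Otk++ replicate 1 and 6.25 on Otk++ replicate 2. WT replicate 1 thus had the weakest 5′ signal relative to 3′ of all 16 arrays, with replicate 2 of arm∆N with tcf∆N-short next. Over all genes the difference from WT replicate 1 moved with gene span: the median of the Otk++ mean minus WT replicate 1 went from -0.38 in the shortest quintile of genes to 0.33 in the longest, while against WT replicate 2 it went from -0.10 to 0.01. The calls, the lists and the genes described most fully are therefore given with and without WT replicate 1. For the calls and some lists a fit with the 3′ to 5′ gap of each array as a covariate is also given. Beyond that, the part of RNA quality in those results was not tested.

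**Figure D1:**
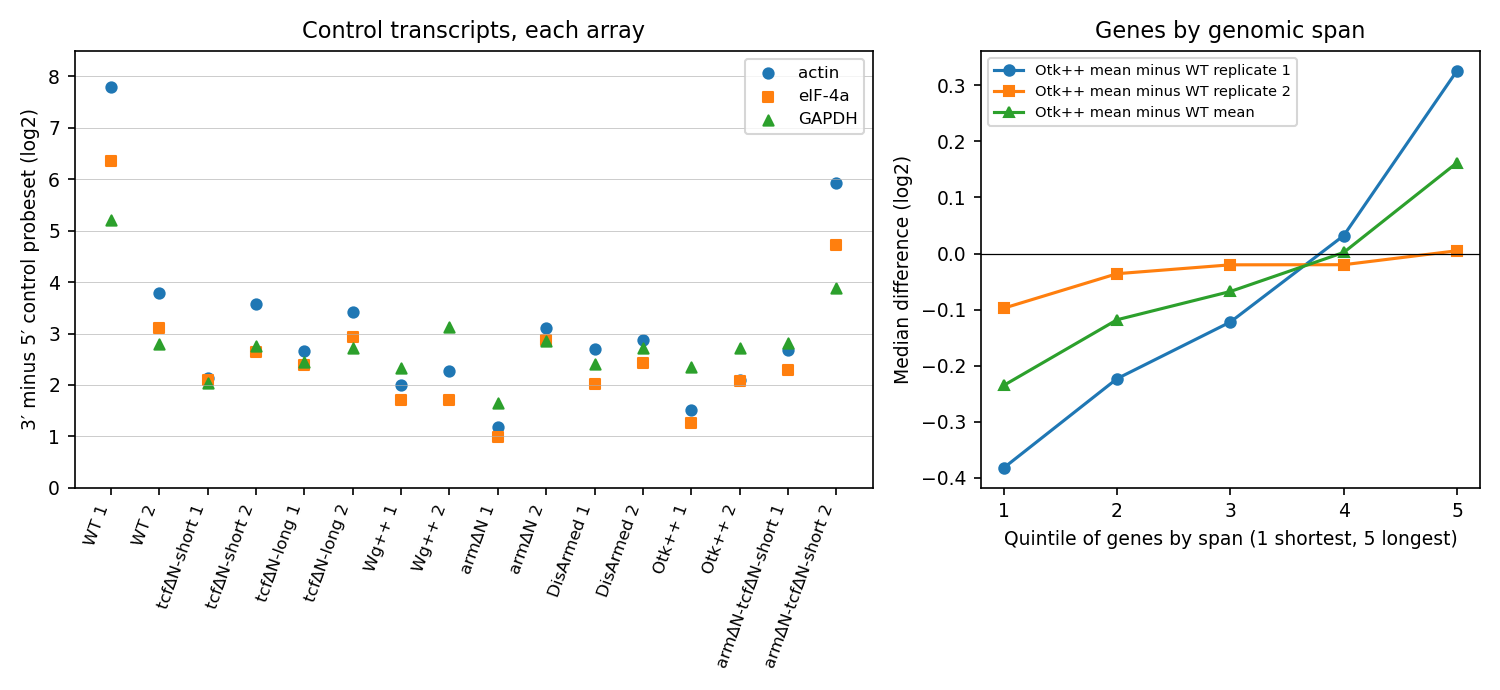
Left, the 3′ minus 5′ control probeset of actin, eIF-4a and GAPDH (log2) on each of the 16 arrays, where WT replicate 1 has the largest gap for each control (7.80, 6.36 and 5.20). Right, the median log2 difference of the Otk++ mean from each WT array and from the WT mean, for quintiles of genes by genomic span, which runs from -0.38 to 0.33 against WT replicate 1 and from -0.10 to 0.01 against WT replicate 2.

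At a fold change above 1.5 and an FDR under 10% in limma, 29 genes were called, 0.327% of those tested, with 11 higher (0.124%) and 18 lower (0.203%) in Otk++. The 2 WT arrays and the 2 Otk++ arrays did not overlap for any of the 29, a pattern that 16.8% of all genes showed in the higher and 24.4% in the lower direction. Prx6c and CG42365 were called with both WT arrays, without WT replicate 1, and with the 3′ to 5′ gap of each array as a covariate, and they were the only genes called in the latter pair of fits. Without WT replicate 2 the count was 841, and all 29 were among them. Without Otk++ replicate 1 it was 2, of which 1 was among the 29, and without Otk++ replicate 2 it was 28, of which 14 were. Each of the 29 kept its direction in every alternative run. For the runs that left out 1 array this was fixed in advance, since the arrays did not overlap. After cyclic loess between arrays the calls were split 11 higher and 11 lower.

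**Figure D2:**
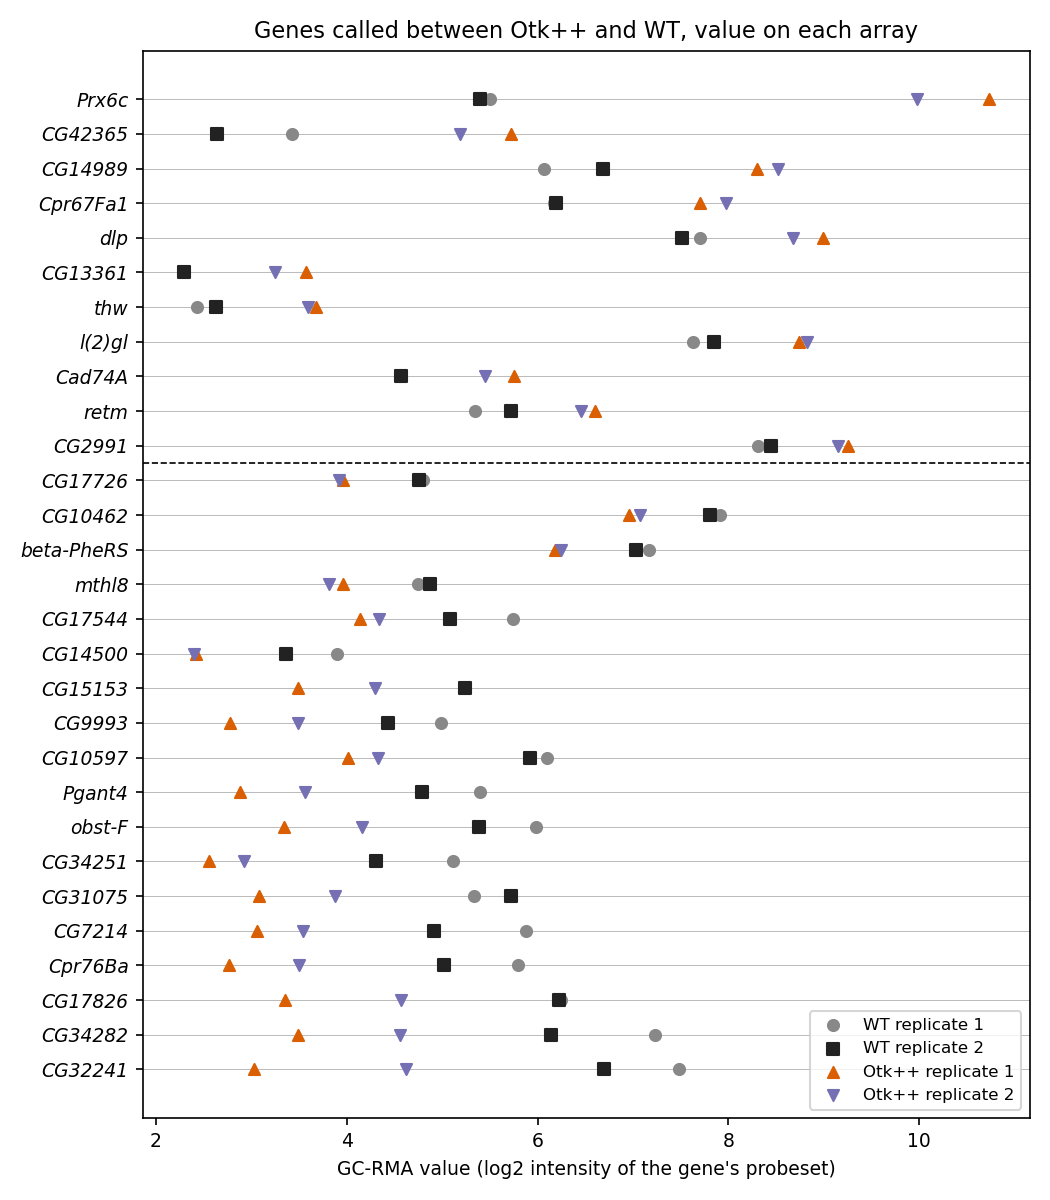
GC-RMA value (log2 intensity) of each of the 29 called genes on the 2 WT and 2 Otk++ arrays, ordered by log2 fold change, with the 11 higher genes above the dashed line and the 18 lower ones below it. Prx6c has the widest gap, from 5.40 and 5.50 in WT to 9.98 and 10.73 in Otk++, and where WT symbols coincide only 1 is visible.

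The overexpressed gene was read first. otk lies on chromosome 2R, 12001473 to 12019846 of the Release 6 assembly, and its probeset read 6.69 and 7.33 in WT and 7.62 and 7.67 in Otk++. The arrays did not overlap, a pattern that 16.8% of all genes showed in the higher direction. The log2 fold change of 0.64 (SE 0.30, adjusted p = 0.319) was not called. It was 0.32 without WT replicate 1 (adjusted p = 0.888). The next genotype was DisArmed at 7.34 and 7.48, which left Otk++ the highest of the 8 genotypes. Against the mean of the 6 other expressing genotypes, in which the WT arrays do not enter, otk was called at 1.09 (adjusted p = 0.0185), as were 6.28% of all genes in that direction. Whether the probes lie in the part of the transcript that the transgene holds was not checked here. For comparison, the probeset of pan, which encodes TCF, averaged between 10.64 and 11.10 in the genotypes that express a shortened TCF and 4.98 in WT, and that of wg averaged 10.09 in Wg++ and 6.41 in WT. The neighbouring otk2 read 6.53 and 7.0004 in WT and 6.70 and 6.77 in Otk++, with overlapping arrays.

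Among the maternal patterning genes, bcd, which encodes the anterior morphogen and whose message is supplied by the mother, read 2.71 and 4.68 in WT and 6.17 and 5.11 in Otk++. Its log2 fold change of 1.95 (SE 0.73, adjusted p = 0.230) was not called, and WT replicate 1 was the low array, without which it was 0.96. tsl, which acts in the terminal system, differed by -0.33 and was not called. nos and arm were not analysed here.

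Prx6c, a peroxiredoxin of the class that reduces peroxides, had the largest rise of all genes tested. It lies on chromosome 2R, 10418718 to 10419761, and read 5.50 and 5.40 in WT and 10.73 and 9.98 in Otk++, a log2 fold change of 4.91 (SE 0.28, 30.0-fold, adjusted p = 3.11e-05). Without WT replicate 1 it was 4.96 (adjusted p = 0.00119). High values were not found in Otk++ alone. The gene averaged 10.35 in tcf∆N-short, 9.74 in arm∆N with tcf∆N-short, 9.57 in tcf∆N-long, 8.16 in Wg++ and 7.50 in arm∆N, while it averaged 4.79 in DisArmed. Against DisArmed the difference was 5.57 (adjusted p = 8.3e-06). Near-identical copies lie close by, so how much of the signal belongs to Prx6c is uncertain. A probeset shared by Prx6b, CG12896 and Prx6c read 10.01 and 10.12 in WT and 12.03 and 10.87 in Otk++, a difference of 1.38.

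CG42365, on chromosome 2R at 21666687 to 21667594, read 3.43 and 2.64 in WT and 5.72 and 5.18 in Otk++. The log2 fold change was 2.42 (SE 0.28, 5.36-fold, adjusted p = 0.0193), and 2.81 without WT replicate 1 (adjusted p = 0.0132). It too was high elsewhere, at 5.82 in tcf∆N-short, and it was lowest in WT of the 8 genotypes. Against DisArmed, which averaged 3.42, Otk++ was higher by 2.04 (adjusted p = 0.0191). Without Otk++ replicate 1 the difference of CG42365 from WT was 2.15, and it was not called, unlike Prx6c.

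dlp, which encodes a glypican that binds Wg and also takes part in Hedgehog signalling at the cell surface, was the one called gene of a Wnt or Hedgehog list. It lies on chromosome 3L, 14632601 to 14671609, and read 7.71 and 7.51 in WT and 8.99 and 8.67 in Otk++. The log2 fold change of 1.22 (SE 0.20, 2.33-fold, adjusted p = 0.0675) was not called without WT replicate 1, although its size was 1.32 there (adjusted p = 0.394). The 6 other genotypes averaged between 7.64 and 8.18, and both Otk++ arrays lay above all of them. The WT arrays play no part in that order, and Otk++ was called higher than the mean of those 6 by 0.99 (adjusted p = 0.00618) and than DisArmed by 1.19 (adjusted p = 0.0482).

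**Figure D3:**
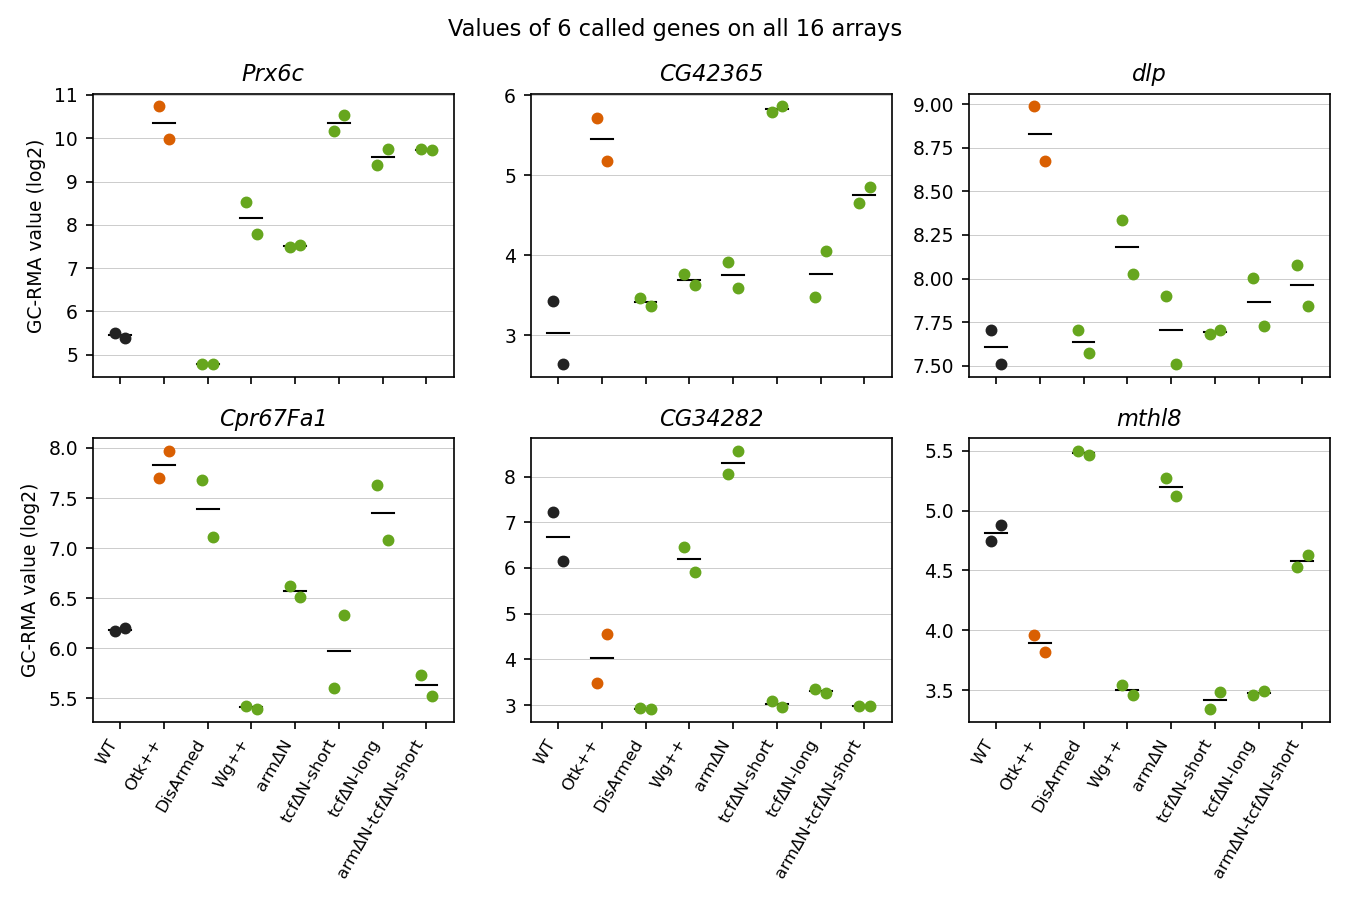
GC-RMA value (log2) of Prx6c, CG42365, dlp, Cpr67Fa1, CG34282 and mthl8 on all 16 arrays, with a point for each array, a line at each genotype's mean, WT in black, Otk++ in orange and the other genotypes in green. dlp is highest in Otk++ (8.67 and 8.99), whereas Prx6c and CG42365 are also high in tcf∆N-short, and CG34282 is as low or lower in DisArmed and in the genotypes with a shortened TCF.

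The other higher genes included 1 member of the polarity list and 1 of the cuticle protein list described later. l(2)gl, which encodes the basolateral polarity protein and tumour suppressor Lethal giant larvae, read 7.63 and 7.84 in WT and 8.74 and 8.82 in Otk++ (log2 fold change 1.04, SE 0.18, adjusted p = 0.0750). Cad74A, a cadherin, went from 4.56 and 4.57 to 5.75 and 5.44 (1.03, adjusted p = 0.0919). Its Otk++ mean of 5.60 lay below those of DisArmed (5.87) and of arm∆N with tcf∆N-short (5.62), and WT was lowest of the 8 genotypes. Cpr67Fa1, a cuticle protein with a chitin-binding domain, went from 6.17 and 6.20 to 7.70 and 7.97 (1.65, adjusted p = 0.0695). It averaged 7.39 in DisArmed and 7.35 in tcf∆N-long. Of these 3 genes only Cpr67Fa1 was called higher than the mean of the 6 other expressing genotypes, and none was called against DisArmed. In these 3 genes the WT arrays lay close together, and the differences without WT replicate 1 were 0.94, 1.03 and 1.64. None of the 3 was called without it, where the adjusted p was between 0.57 and 0.602.

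CG14989 read 6.07 and 6.69 in WT and 8.30 and 8.51 in Otk++ (2.03, adjusted p = 0.0919; 1.72 without WT replicate 1), and was higher still in arm∆N at 9.03. retm differed by 0.99 and CG2991 by 0.82, with 0.81 and 0.75 without WT replicate 1. In 2 of the 11 genes WT sat near the lowest value in the file, 2.29, so that the fold is a lower bound. CG13361 was at 2.29 on both WT arrays and read 3.57 and 3.24 in Otk++, at least 2.17-fold higher. It averaged between 2.29 and 2.53 in the 6 other genotypes, and was called against their mean and against DisArmed. thw read 2.43 and 2.63 in WT and 3.67 and 3.59 in Otk++, at least 2.15-fold higher, while 2 further thw probesets lay at 2.29 on all 4 arrays.

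Of the 11 higher genes, 9 were also called higher in Otk++ than in the mean of the 6 other expressing genotypes, where 6.28% of all genes were, and 6 were called higher than in DisArmed, where 0.316% were. These comparisons share the Otk++ arrays with the first, though not the WT arrays. Otk++ had the highest mean of the 8 genotypes in 8 of the 11.

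Of the 18 lower genes, 6 were also called lower against the mean of the 6 others (background 4.93%) and 2 against DisArmed (background 0.383%). Otk++ had the lowest mean of the 8 genotypes in 4, namely CG32241, CG31075, CG17544 and CG10462. CG32241 fell most, from 7.48 and 6.70 in WT to 3.03 and 4.62 in Otk++ (-3.26, SE 0.63, adjusted p = 0.09996). It averaged 8.82 in tcf∆N-long and 8.69 in tcf∆N-short, and 4.57 in Wg++. A further probeset of CG32241 differed by -2.37. CG31075, of the aldehyde dehydrogenase family, went from 5.33 and 5.72 to 3.08 and 3.88 (-2.05, adjusted p = 0.0919).

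Among the lower genes, 1 belonged to the list of cuticle protein genes and 1 to that of obstructor and peritrophin genes. Cpr76Ba, a cuticle protein with a chitin-binding domain, read 5.79 and 5.02 in WT and 2.76 and 3.50 in Otk++ (-2.27, SE 0.35, adjusted p = 0.0516). obst-F, of the obstructor family of chitin-binding proteins, read 5.98 and 5.39 in WT and 3.34 and 4.16 in Otk++ (-1.93, adjusted p = 0.0613). Pgant4, an enzyme that begins O-linked glycosylation of secreted mucin-like proteins, read 5.40 and 4.79 in WT and 2.88 and 3.56 in Otk++ (-1.87, adjusted p = 0.0516). In all 3 WT replicate 1 was the higher WT array. Without it the differences were -1.89, -1.64 and -1.57, with adjusted p between 0.394 and 0.575. These genes were not lowest in Otk++: obst-F averaged 2.98 in DisArmed and 2.52 in tcf∆N-short, and Pgant4 averaged 2.36 and 2.33 there, against 6.60 in arm∆N. Cpr76Ba averaged 2.85 in tcf∆N-short, but 4.58 in DisArmed, above its Otk++ mean of 3.13. It was called lower than the mean of the 6 other expressing genotypes (-1.08, adjusted p = 0.0323).

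CG34282 and CG17826 were among the genes that fell most. CG34282 read 7.23 and 6.14 in WT and 3.48 and 4.56 in Otk++ (-2.67, adjusted p = 0.0516), with 8.30 in arm∆N and 2.92 in DisArmed. CG17826 read 6.25 and 6.23 in WT and 3.36 and 4.57 in Otk++ (-2.28, adjusted p = 0.0516), with 7.08 in arm∆N and 2.56 in DisArmed. In both, Otk++ lay between WT and DisArmed. CG7214 (-2.10), CG34251 (-1.97), CG10597 (-1.84), CG9993 (-1.58), CG15153 (-1.35) and CG14500 (-1.22) completed the genes that fell by more than 1.2 on the log2 scale. The Otk++ mean was under 3 in CG34251 and CG14500, so their folds of 3.93 and 2.33 are lower bounds.

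mthl8, a G-protein-coupled receptor of the Methuselah family, read 4.75 and 4.88 in WT and 3.96 and 3.82 in Otk++ (-0.92, SE 0.14, adjusted p = 0.0541), and a further mthl8 probeset differed by -0.79. It was higher in DisArmed, at 5.48, and Otk++ was called lower than DisArmed by -1.59 (adjusted p = 0.000954). beta-PheRS, a subunit of the enzyme that charges the tRNA for phenylalanine, read 7.17 and 7.03 in WT and 6.18 and 6.25 in Otk++ (-0.89, adjusted p = 0.0845). CG17544, CG10462 and CG17726 differed by -1.17, -0.84 and -0.84. Over all 18 lower genes the difference without WT replicate 1 lay between -2.87 and -0.79, and none was called.

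The other genes of the pathway gave no call apart from dlp. Of 21 genes of the Otk and non-canonical Wnt list, 4 had an unadjusted p under 0.05 in the higher direction, as did 7.73% of all genes, and none in the lower. The list's median log2 fold change was 0.42, against -0.06 over all genes. It was 0.10 with the 3′ to 5′ gap as a covariate. Without WT replicate 1 it was 0.15 and 2 members had such a p, all higher, as did 3.43% of all genes in the higher and 3.44% in the lower direction. The 4 were Sema1a (1.32), ds (0.69), bsk (2.39) and Vang (0.60). ds, an atypical cadherin of planar polarity, read 5.69 and 5.81 in WT and 6.52 and 6.36 in Otk++. bsk, the fly JNK, read 3.61 on WT replicate 1 and 6.53 on WT replicate 2, and 7.70 and 7.22 in Otk++, so that its fold rests on 1 WT array, and it was 0.93 without WT replicate 1. Wnt4 read 6.70 and 7.25 in WT and 7.23 and 7.59 in Otk++, with overlapping arrays. Against the mean of the 6 other genotypes, 8 of the 21 were called higher and none lower, beside 6.28% of all genes. From that mean Wnt4 differed by 0.94, Vang by 0.77, drl, a Wnt5 receptor, by 0.85 and ft by 1.06. Against DisArmed alone none of the 21 was called, with a median of 0.37. Wnt4 read 7.09 and 7.40 in arm∆N, which overlapped its Otk++ arrays.

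In the canonical branch, 7 of 14 components had an unadjusted p under 0.05 in the higher direction and none in the lower. Of all genes, 7.73% had one in the higher direction. The list's median was 0.61, and 0.41 without WT replicate 1. With the 3′ to 5′ gap as a covariate it was 0.35, and no member had such a p. CkIalpha, a kinase that marks beta-catenin for destruction, read 8.79 and 8.94 in WT and 10.08 and 10.004 in Otk++ (1.18, adjusted p = 0.156). wls, which carries Wnt ligands to the cell surface, read 6.71 and 7.55 in WT and 9.20 and 8.21 in Otk++ (1.57, adjusted p = 0.161). wg itself read 6.43 and 6.40 in WT and 7.26 and 6.86 in Otk++ (0.64, adjusted p = 0.295). These genes did not overlap between the groups, a pattern that 16.8% of all genes showed in the higher direction, and none was called. They differed by 1.10, 1.16 and 0.66 without WT replicate 1. Of 13 targets and feedback genes of Wg, 3 had an unadjusted p under 0.05, all higher (mid, dally and wg), and none had without WT replicate 1. en and Dll, which canonical signalling maintains in the epidermis and limb primordia, differed by 0.04 and 0.03, and the feedback inhibitor nkd by 0.59.

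With both WT arrays, the list with the highest median was that of epithelial polarity and adherens junction genes, which keep the apical and basal faces of a cell sheet apart. Of 16 members, 8 had an unadjusted p under 0.05 in the higher direction and none in the lower, with a median of 0.69. Of all genes, 7.73% had such a p in the higher direction and 0.124% were called higher. The 1 member called was l(2)gl. dlg1 (1.20), Nrt (1.12), ed (1.26), baz (1.46) and shg (2.88) followed it. shg, E-cadherin, read 2.84 and 5.39 in WT and 7.44 and 6.56 in Otk++ (adjusted p = 0.163), and without WT replicate 1 it differed by 1.61. The list had a median genomic span of 18983.5 bp, against 2766 bp over all genes tested, and WT replicate 1 had the lowest median of the 4 arrays for the list, at 7.09. Without that array the median was 0.47, below that of the Hedgehog list (0.56), and 5 members had an unadjusted p under 0.05, where 3.43% of all genes had one in that direction. Against DisArmed the list's median was 0.44, with no call. For septate junction genes, 6 of 15 had an unadjusted p under 0.05 with both WT arrays (7.73% of all genes in the higher direction) and none without WT replicate 1 (3.43%), and the median was 0.18 without it.

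Hedgehog pathway genes other than dlp were not called. ptc, the receptor and a target of the pathway, read 3.04 and 3.74 in WT and 5.48 and 4.57 in Otk++ (1.64, adjusted p = 0.161), and was called against the mean of the 6 others at 1.38 (adjusted p = 0.0293). Its difference from WT was 1.29 without WT replicate 1. The list's median was 0.38 over 12 genes and 0.56 without WT replicate 1. With both WT arrays 3 members had an unadjusted p under 0.05, all higher, as did 7.73% of all genes in that direction. In the Dpp pathway 7 of 23 genes had such a p in the higher direction, led by put, a receptor (1.16), Mad (1.12) and shn (0.85), and 5 did without WT replicate 1. In the lower direction the receptor tkv had such a p with both WT arrays (-1.28), though not without WT replicate 1 (-0.51), when zen was the 1 such member. EcR, the ecdysone receptor, read 5.41 and 5.09 in WT and 6.48 and 6.21 in Otk++ (1.10, adjusted p = 0.122), and fell short of the threshold. Its difference was 1.25 without WT replicate 1 (adjusted p = 0.535).

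Tracheal genes with the largest values were vvl, a transcription factor of the tracheal primordia, and uif. vvl read 2.78 and 4.43 in WT and 6.20 and 5.70 in Otk++ (2.35, adjusted p = 0.151), and uif 4.12 and 6.73 in WT and 7.92 and 7.80 in Otk++ (2.43, adjusted p = 0.167). Both were called against the mean of the 6 others, at 1.92 and 2.07. WT replicate 1 was the low array for both, and without it they differed by 1.52 (vvl) and 1.13 (uif). The median of the 10 tracheal genes was 0.03, and 0.06 without WT replicate 1.

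**Figure D4:**
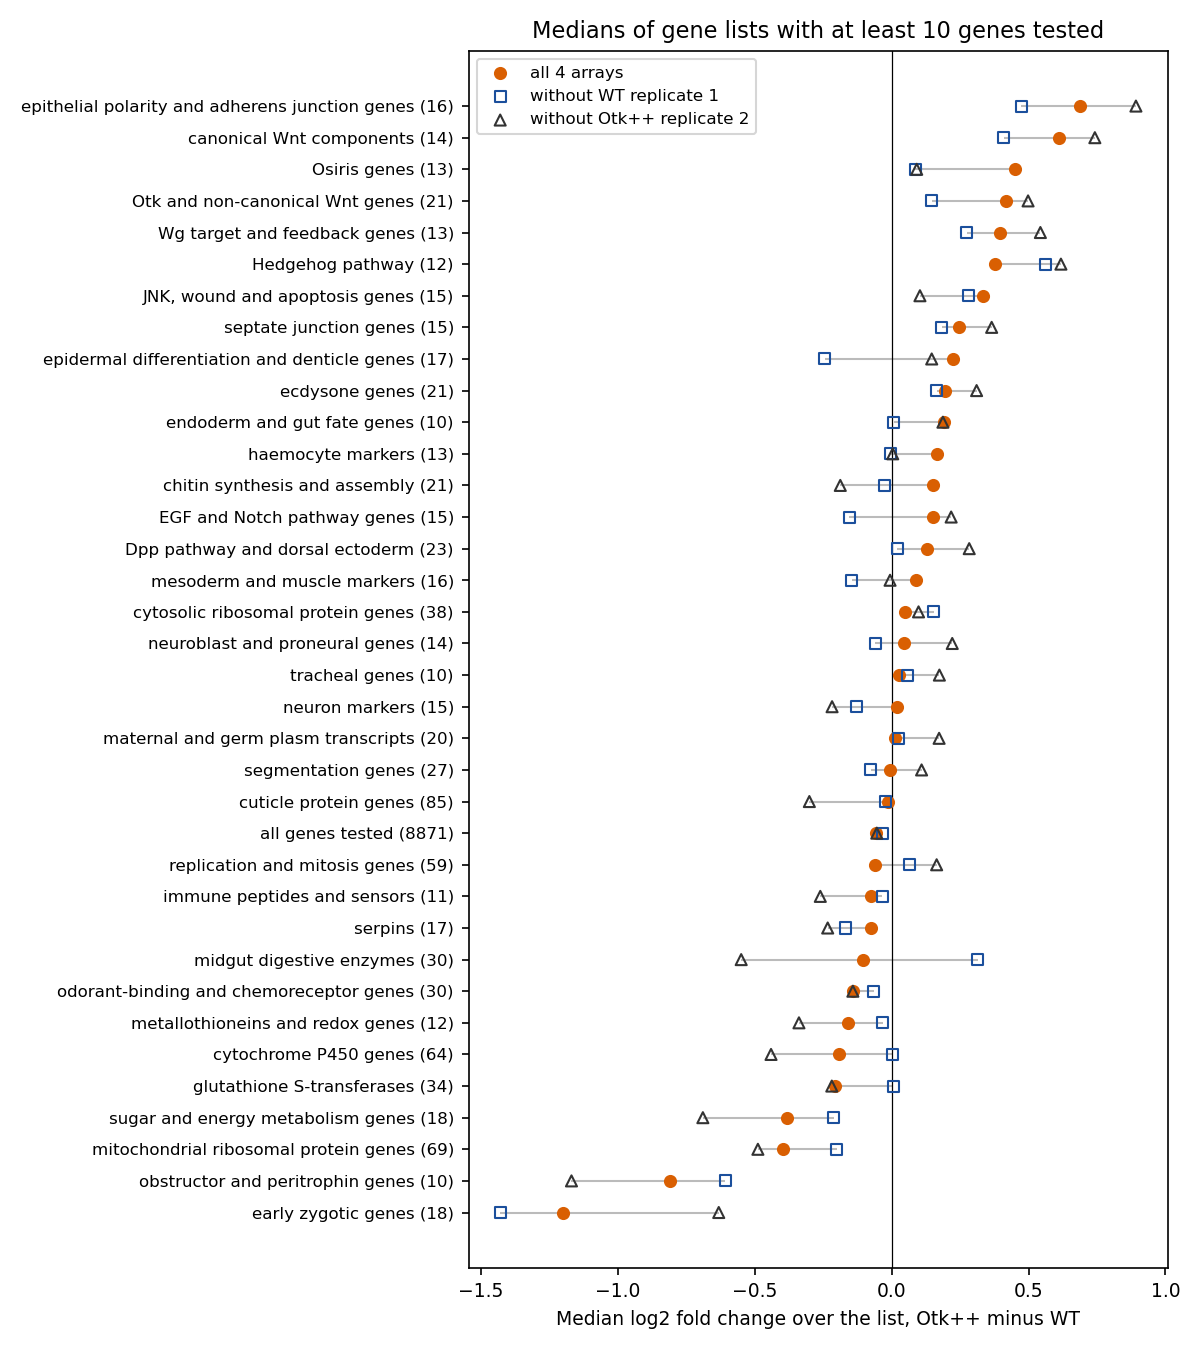
Median log2 fold change, Otk++ minus WT, of each gene list with at least 10 genes tested (number in brackets), with all 4 arrays, without WT replicate 1 and without Otk++ replicate 2. Medians run from -1.20 for early zygotic genes to 0.69 for polarity genes with all 4 arrays. Many of the medians change sign without WT replicate 1. Among these lists are midgut digestive enzymes, epidermal differentiation genes, EGF and Notch pathway genes, and mesoderm and muscle markers.

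Genes of the cuticle split in both directions. Of 85 cuticle protein genes, 5 had an unadjusted p under 0.05 in the higher and 13 in the lower direction, beside 7.73% and 9.09% of all genes, and the calls were Cpr67Fa1 and Cpr76Ba. Cpr76Bb, a further cuticle protein, read 5.98 and 5.86 in WT and 3.33 and 4.51 in Otk++ (-1.997, adjusted p = 0.145), while Vajk4 read 5.91 and 6.97 in WT and 8.62 and 9.49 in Otk++ (2.61, adjusted p = 0.185). These differed by -1.94 (Cpr76Bb) and 2.08 (Vajk4) without WT replicate 1, when 2 members had such a p in the higher and 7 in the lower direction. Of 10 obstructor and peritrophin genes, 4 had such a p with both WT arrays, all lower. The median was -0.81, and -0.61 without WT replicate 1. With the 3′ to 5′ gap as a covariate it was -0.06, and 3 members had such a p, all lower. Against DisArmed the list's median was 0.05, and against the mean of the 6 others it was -0.03. Peritrophin-15a (-2.75) and Peritrophin-15b (-2.71), proteins of the lining of the gut, were not called against WT but were called lower against the mean of the 6 others.

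Osiris genes, a cluster of insect membrane proteins switched on in cuticle-forming epithelia, were called higher in Otk++ than in the mean of the other expressing genotypes, but not than in DisArmed alone or in WT. Against the mean of those 6 genotypes, 11 of 13 were called higher and none lower, with a median of 1.78, where 6.28% of all genes were called higher. Against WT none was called, with a median of 0.45 (0.09 without WT replicate 1), and against DisArmed none was, with a median of 0.46. On single arrays the list's median was 8.01 and 9.09 in Otk++, 8.26 and 7.92 in DisArmed and up to 8.46 in arm∆N, while it was 3.25 and 2.84 in Wg++. Osi7 had the largest difference from WT, 3.59 and 5.52 in WT and 8.93 and 9.09 in Otk++ (4.45, SE 1.31, adjusted p = 0.176), and without WT replicate 1 its difference was 3.49. Osi20 overlapped between the groups, at 9.74 and 9.98 in WT and 9.22 and 10.38 in Otk++.

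Early zygotic genes, which are transcribed around the blastoderm stage, had the lowest list median, -1.20 over 18 genes. Of them 7 had an unadjusted p under 0.05, all lower, as did 9.09% of all genes in that direction. Otk++ replicate 2 was the low array: the list's median there was 3.96, against 6.45 on Otk++ replicate 1, 6.49 and 6.70 on the WT arrays and 5.41 to 6.96 on the other 12. Z600 read 7.50 and 8.69 in WT, 7.31 on Otk++ replicate 1 and 2.59 on Otk++ replicate 2. halo, which acts in the syncytial blastoderm, read 7.02 and 8.76 in WT and 7.12 and 3.25 in Otk++. The median was -1.43 without WT replicate 1, again with 7 members at such a p. Without Otk++ replicate 2 the median was -0.63 and no member had an unadjusted p under 0.05. The part of embryo age in this was not tested, and in whole embryos fewer cells that express a gene and less of its RNA per cell cannot be told apart.

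Mitochondrial ribosomal protein genes, which are short (median span 909 bp), had 26 of 69 at an unadjusted p under 0.05 in the lower and 1 in the higher direction, beside 9.09% and 7.73% of all genes, with a median of -0.40. Without WT replicate 1 the count was 6 lower, where 3.44% of all genes were, and the median -0.20, and against DisArmed the median was -0.05. None was called. mRpL33 had the lowest p of those that were lower, at 9.49 and 9.05 in WT and 8.55 and 8.76 in Otk++ (-0.62, adjusted p = 0.167). Cytosolic ribosomal protein genes had a median of 0.05 over 38 genes.

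Marker lists of other tissues gave no call. The median log2 fold change was 0.09 for mesoderm and muscle (16 genes), 0.02 for neurons (15), -0.11 for glia (7), 0.16 for haemocytes (13), -0.08 for salivary gland (9), 0.19 for endoderm and gut fate (10) and 0.22 for epidermal differentiation (17). Without WT replicate 1 these medians lay between -0.25 and 0.01. On single arrays the median of the muscle list was 8.33 and 8.79 in WT and 9.01 and 9.90 in Otk++, and that of the midgut enzymes was 6.17 and 4.37 in WT and 4.47 and 5.92 in Otk++. The midgut list thus varied more within each genotype than between them. Of the muscle markers, up, a troponin subunit (1.52), and Mlc2, a myosin light chain (1.16), had an unadjusted p under 0.05 with both WT arrays, and no member had without WT replicate 1.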

How the data were processed

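RNA was measured on Affymetrix Drosophila 2 arrays, and the authors made the deposited log2 values with GC-RMA, whose version is not given in the sources used here. Values run from 2.289, which 29.4% to 32.6% of probesets have on each array, to 13.77. Following the study's filters, 13658 of 18952 probesets with 1 gene were kept (11 of them named through the study's own pairing), then for each gene on X, 2L, 2R, 3L, 3R, 4 or Y the probeset with the largest IQR, if above 2.5 in at least 2 arrays. Names and coordinates come from the Release 6 plus ISO1 MT gene table.

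All 16 arrays entered 1 linear model in limma (version 3.58.1, under R 4.3.3), with a term for each genotype, 8 residual degrees of freedom and 2.73 from the prior. The fit was tested on simulated data with the same noise on every array, which does not cover an array like WT replicate 1. A gene was called at an absolute fold change above 1.5 and a Benjamini-Hochberg FDR under 10%. Named genes are the called genes, otk, otk2, Wnt4, wg, pan, bcd and tsl, and members of the gene lists with the lowest adjusted p. Further list members were named after their values were seen. Genes and lists were chosen with earlier results of these data known. The number of arrays limits the precision, and the median standard error of a log2 fold change was 0.287. A fit without an array leaves its group 1 array, taken to vary like the others. Arrays that express Wnt4 were not analysed here.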

Additional observations from a re-analysis of the deposited data

Results flagged for a closer look

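For 8 of the 29 called genes Otk++ also differed from DisArmed, by limma's test of Otk++ minus DisArmed, in which the WT mean does not enter. Of all genes, 0.316% were called higher and 0.383% lower in that test. The 29 were chosen with the same Otk++ arrays that enter it. The log2 differences were 5.57 for Prx6c (SE 0.28, adjusted p = 8.3e-06), 2.04 for CG42365 (adjusted p = 0.0191), 1.90 for CG14989 (adjusted p = 0.0796), 1.19 for dlp (adjusted p = 0.0482), 1.12 for CG13361 (adjusted p = 0.0216) and 0.845 for CG2991 (adjusted p = 0.0603). CG10597 differed by -1.73 (adjusted p = 0.0829) and mthl8 by -1.59 (adjusted p = 0.000954). For the first 6 Otk++ was higher and for the last pair lower than DisArmed on both arrays.

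Probesets that the annotation ties to several genes or to none were left out of the comparison. Of 1240 such probesets above 2.5 in at least 2 arrays, 17 were called in a limma fit of their own, 10 higher and 7 lower in Otk++. The higher ones included 1 shared by Adh and Adhr, at 8.68 and 9.69 in WT and 10.48 and 11.29 in Otk++ (log2 fold change 1.70), and 1 shared by CG42353 and CG42354 (0.890). The other 8 have no gene listed and differed by 2.35, 2.23, 1.79, 1.62, 1.39, 1.004, 0.893 and 0.856. The largest of the 7 lower differences was in 1 shared by CG34105 and CG12491, at 5.36 and 5.90 in WT and near the lowest value of the file in Otk++, at 2.289 and 2.314, so that its -3.33 understates the difference (adjusted p = 0.0879). A probeset shared by CG31904 and Acp1 differed by -1.88 (adjusted p = 0.0471), and the other 5 have no gene listed and differed by -2.57, -1.08, -0.910, -0.889 and -0.699. Adjusted p-values over all 17 lay between 0.0471 and 0.0977 in limma. Without WT replicate 1, an alternative chosen after seeing the data, none of the 17 was called. All 17 kept their direction there, which was fixed in advance, since their WT and Otk++ arrays did not overlap.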

How the results depend on the processing

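The count of genes called between Otk++ and WT, 29 of 8871, depended on most choices. It was 68 with no expression filter, 16 with a filter at 4, 17 with a trend and robust prior, 0 when only the 4 arrays compared were fitted (610 genes at an unadjusted p under 0.05), and 2 at an FDR under 5%. It was 2 to 841 when 1 array was left out, with 2 without WT replicate 1 and without Otk++ replicate 1, and 2 with the 3′ to 5′ gap as a covariate, which was chosen after seeing the data. Cyclic loess (22) and the probeset with the highest mean (33) stayed within 1.5 times. Against the mean of the 6 others, 994 were called, 656 with no expression filter and 374 to 1236 with 1 array left out (374 without Otk++ replicate 1, 587 without Otk++ replicate 2). Against DisArmed, 62 were called, 0 with only the 4 arrays compared (1031 at an unadjusted p under 0.05), 21 at an FDR under 5%, and 8 to 117 with 1 array left out (8 and 23 without DisArmed replicates 1 and 2, 19 and 117 without Otk++ replicates 1 and 2). None of the 29 genes called against WT changed direction in the runs of that comparison. Only cyclic loess, the probeset with the highest mean and the gap covariate could have changed it. The arrays of the 29 did not overlap, so leaving out 1 array could not, and the other runs keep the fold change.

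The labels do not say that equal replicate numbers share a day or batch, so the pairing was not used. Deviations of same-numbered Otk++ and WT arrays correlated at -0.047. That check covers Otk++ and WT alone, so it cannot show whether replicate number carries an effect shared by all genotypes. With replicate number as a block, 403 genes were called against WT (29 without the block), 267 against DisArmed (62) and 1407 against the mean of the 6 others (994).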
